A study of Mus musculus with 4 samples.

Results

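The Polycomb group was followed through 36 genes that encode subunits of Polycomb repressive complexes 1 and 2 (PRC1 and PRC2) and of the Polycomb repressive deubiquitinase (PR-DUB). A gene was taken from the deposited table where the platform annotation gave its probe set that 1 symbol alone, and the brightest probe set was used, which left 35 of the 36 among 19938 measured genes. Cbx6, a chromodomain subunit of PRC1, lies only on a probe set with several symbols and was not analysed here. RNA came from E14 mouse embryonic stem cells that carried a lentiviral shRNA against Usp22 (2 arrays) or against Luc, the control (2 arrays). Usp22 is the deubiquitinase of the coactivator complex SAGA, which removes ubiquitin from histone H2B. All cells of both groups were kept feeder-free on gelatin with 20% FBS and LIF, plus 1 µM PD0325901, which inhibits MEK, and 3 µM CH99021, which inhibits GSK3 (2i). The labels do not say whether the replicates were separate cultures, how many shRNA sequences were used or how long after infection RNA was taken. The p-values thus cover only the variation among these 4 arrays, part of which may be technical.

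Polycomb complexes keep developmental genes silent. PRC2 methylates histone H3 through Ezh1 or Ezh2, PRC1 ubiquitinates histone H2A through Ring1 or Rnf2, and PR-DUB removes that ubiquitin again. PRC1 comes as canonical complexes, which hold a Cbx chromodomain protein that reads the PRC2 mark, and as variant complexes, which hold Rybp or Yaf2 instead; the Pcgf subunit decides which kind is built. In embryonic stem cells the complexes sit at CpG-rich promoters of lineage genes, and many subunits can be lost without loss of self-renewal.

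Values are log2 signals of 1-colour Affymetrix arrays, quantile-normalized between the 4 arrays, and a log2 fold change is depleted minus control. Array precision is limited by the number of arrays: limma gave every gene the same standard error of 0.27, and the smallest change it called at an adjusted p under 0.05 over all genes was 0.86. Array medians of the deposited intensities ran from 110 to 128. Across genes, the depleted arrays correlated at r = 0.978 with each other and the control arrays at r = 0.941, while r between a control and a depleted array was 0.877 and 0.908 for control replicate 2 but 0.951 and 0.974 for control replicate 1. Control replicate 2 therefore stood apart from the other 3 arrays, and values that it moved by over 1.5 times are also given without it. Usp22 itself read 8.23 and 8.29 on the depleted arrays and 9.41 and 9.36 on the control arrays (log2 fold change −1.12; limma, adjusted p = 0.00826). This call ended without either depleted array (limma adjusted p = 0.830 without replicate 1 and 0.360 without replicate 2). As a measure of background served 1194 genes of olfactory and vomeronasal receptors: the 95th percentile of their mean signals, 6.99, is called the receptor background. All 12 markers of mouse embryonic stem cells lay above it, as did 4 of 8 fibroblast, 3 of 7 primitive endoderm, 5 of 7 trophectoderm, 3 of 6 neuroectoderm and 3 of 5 mesoderm markers, and 0 of these 45 markers rose or fell (limma; 3 were higher and 8 lower at an unadjusted p under 0.05, and with the intensity trend Sox2 was higher and Nanog, Klf4, Tfcp2l1 and Evx1 lower). In bulk RNA, fewer cells of a type and less RNA per cell cannot be told apart.

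Promoters are shown for the members with the highest and the lowest log2 fold change, Pcgf5 and Phc2, since CpG-rich promoters are the places where Polycomb complexes themselves bind. Sequences are RefSeq's (GRCm38.p6), 250 bases before to 50 after a start, plus strand, with CpG in capitals; of the 3 starts listed for each gene the most upstream and the most downstream are printed.
Pcgf5, chr19:36348079-36348378: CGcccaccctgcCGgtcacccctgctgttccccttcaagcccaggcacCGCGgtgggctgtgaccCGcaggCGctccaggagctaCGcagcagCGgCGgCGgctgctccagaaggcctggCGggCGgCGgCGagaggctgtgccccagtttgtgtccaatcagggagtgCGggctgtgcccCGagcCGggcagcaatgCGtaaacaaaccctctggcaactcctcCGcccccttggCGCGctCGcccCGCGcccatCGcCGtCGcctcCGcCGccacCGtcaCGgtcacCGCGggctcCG
Pcgf5, chr19:36409498-36409797: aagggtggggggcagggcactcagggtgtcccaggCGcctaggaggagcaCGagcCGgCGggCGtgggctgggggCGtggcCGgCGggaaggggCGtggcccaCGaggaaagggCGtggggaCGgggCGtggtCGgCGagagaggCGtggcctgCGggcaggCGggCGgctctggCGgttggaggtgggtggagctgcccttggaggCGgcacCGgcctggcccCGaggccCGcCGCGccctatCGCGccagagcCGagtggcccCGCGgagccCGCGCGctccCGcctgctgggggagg
Phc2, chr4:128654452-128654751: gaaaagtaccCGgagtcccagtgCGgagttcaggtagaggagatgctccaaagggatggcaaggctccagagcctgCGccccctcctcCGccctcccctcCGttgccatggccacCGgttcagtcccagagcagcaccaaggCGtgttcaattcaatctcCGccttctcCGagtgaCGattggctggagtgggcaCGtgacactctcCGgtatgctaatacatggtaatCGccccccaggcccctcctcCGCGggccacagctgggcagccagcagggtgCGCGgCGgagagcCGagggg
Phc2, chr4:128727321-128727620: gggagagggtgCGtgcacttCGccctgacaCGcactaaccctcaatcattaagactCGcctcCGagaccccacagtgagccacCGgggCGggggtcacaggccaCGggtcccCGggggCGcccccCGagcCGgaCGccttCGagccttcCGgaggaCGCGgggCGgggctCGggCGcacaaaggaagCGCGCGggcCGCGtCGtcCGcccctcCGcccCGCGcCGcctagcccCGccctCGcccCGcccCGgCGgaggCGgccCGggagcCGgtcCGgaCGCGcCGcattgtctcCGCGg
These windows hold 34 and 35 CpG at the Pcgf5 starts and 19 and 45 at the Phc2 starts, and the start of each gene that lies between them has 5 and 2. A promoter was listed for 31 of the 35 members (all but Pcgf1, Cbx2, Rybp and Yaf2). Taking the most upstream start of each gene, the members had a median of 24 CpG and 66.0% G or C, against 21 CpG and 60.67% over the genes above the receptor background, of which 80.2% had a promoter listed, and 7 CpG and 52.67% over the 27025 genes of the promoter table, which include non-coding genes. Among the members, promoters ran from 4 CpG at Aebp2 to 54 at Scmh1. On either strand, the SP1-type box GGGCGG was in 23 of the 31 promoters (74.2%, against 64.18% of promoters of genes above the receptor background and 35.92% of all promoters). CCAAT was in 11 (35.5%, against 39.22% and 38.02%), the ETS core CCGGAAG in 2 (6.5%, against 18.58% and 9.14%) and the CRE TGACGTCA in 1 (3.2%, against 3.43% and 1.85%). All of these motifs but CCAAT hold a CpG themselves, and none contains another. A match is a description of these letters, not of a bound site.

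Of the 35 measured members, 1 rose, Pcgf5, and 0 fell (limma adjusted p under 0.05; 8 were higher and 3 lower at an unadjusted p under 0.05). The background was 2.62% of all genes higher and 0.105% lower, so 1 of 35 (2.86%) is near it. The unadjusted counts stand beside 15.4% and 6.63% of all genes. Without control replicate 1, 11 members were called higher and 6 lower, where all genes gave 4884 and 4236, and without any other array 0 members were called (limma). With an intensity trend in limma the members gave 0 higher and 1 lower, Phc2, where 1.64% and 1.43% of all genes were called. Log2 fold changes of the members ran from −0.71 (Phc2) to 1.03 (Pcgf5) around a median of −0.05, with 17 above and 18 below 0, and their quartiles were −0.35 and 0.47, against a median of −0.12 and quartiles of −0.35 and 0.36 for all genes. The arrays of the groups did not overlap for 14 higher and 16 lower members (40% and 45.7%), where all genes gave 27.4% and 33.3%; among the 9736 genes above the receptor background these shares were 36.8% and 37.7%, and among the 29 members above it 37.9% and 51.7%. Control replicate 2 lay farther from the depleted mean than control replicate 1 for 28 of 35 members (80%) and for 78.4% of all genes. The gap between the arrays of a group had a median of 0.084 among depleted and 0.30 among control arrays over the members. Over all genes these medians were 0.18 and 0.36. The smallest p of an exact permutation test would be 0.333 with so few arrays, so none was made for single genes.

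**Figure D1:**
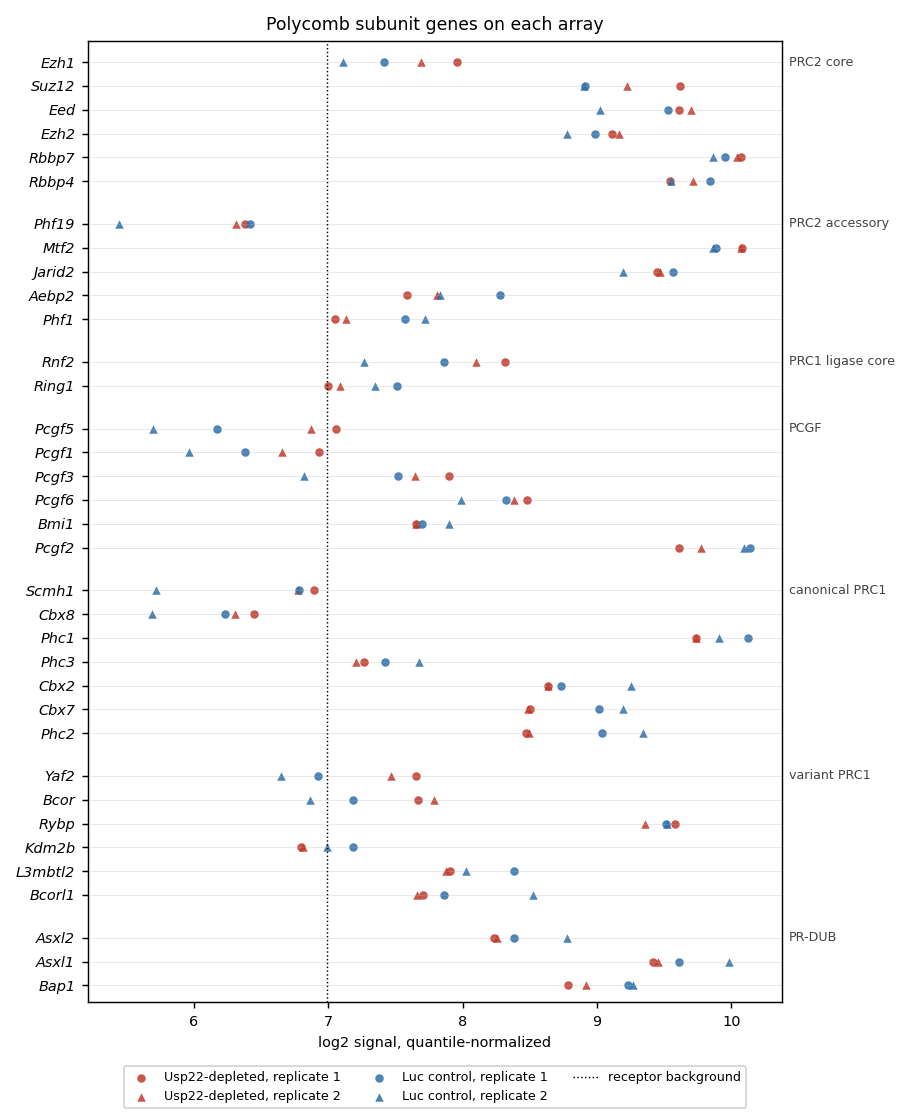
Log2 signal (x axis, quantile-normalized) of each of the 35 Polycomb subunit genes (rows, by role) on the 2 Usp22-depleted arrays (red) and the 2 Luc control arrays (blue), with circles for replicate 1, triangles for replicate 2 and a dotted line at the receptor background of 6.99. Red and blue symbols separate for 30 genes, and the blue triangle lies farther from the red symbols than the blue circle for 28 of 35 genes.

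The PRC2 core genes stood higher in depleted cells except Rbbp4, but none of the 6 passed the test (limma; 1 was higher and 0 lower at an unadjusted p under 0.05, and 0 were called with the intensity trend). Their median log2 fold change was 0.32, against −0.12 over all genes, and 5 of 6 were higher without overlap, where 36.8% of all genes above the receptor background were; all 6 lie above it. Ezh1, the catalytic subunit found in many resting cells, read 7.96 and 7.69 on the depleted arrays against 7.41 and 7.11 on the controls (log2 fold change 0.57, 95% interval 0.04 to 1.09, limma adjusted p = 0.197). Both depleted arrays lay above both controls.
Ezh2, the catalytic subunit that dominates in dividing cells, read 9.11 and 9.16 in depleted cells and 8.98 and 8.78 in controls (log2 fold change 0.25, interval −0.27 to 0.78, and 0.15 without control replicate 2). Suz12, the scaffold, read 9.62 and 9.22 on the depleted and 8.91 and 8.90 on the control arrays (log2 fold change 0.52, limma adjusted p = 0.232). The control arrays of Suz12 lay almost on each other, and its change was 0.51 without control replicate 2. Eed, which binds the methyl mark, read 9.61 and 9.70 in depleted cells against 9.53 and 9.02 in controls, and its log2 fold change of 0.38 was 0.12 without control replicate 2. The histone-binding genes Rbbp7 and Rbbp4, which also serve other chromatin complexes, stood at 0.15 and −0.07, the second at −0.22 without control replicate 2. Dimmer probe sets of Eed and Rbbp7 gave 0.49 and 0.21, that of Eed under the receptor background with a mean of 5.51. Without control replicate 2 the median of the core genes was 0.14, and with each array centred on its median it was 0.53 with 6 of 6 above 0. Relative to the median of all genes, the core genes' median was 0.43, and 0.63 after that centring.

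Accessory subunits direct PRC2 to its sites, and their genes lay on both sides of 0, with 0 of 5 called (limma; 0 higher and 1 lower at an unadjusted p under 0.05, 0 with the intensity trend). Phf1, a Polycomb-like protein that binds methylated H3, was the lowest of them. It read 7.05 and 7.13 on the depleted arrays, below 7.57 and 7.72 on the controls without overlap (log2 fold change −0.56, interval −1.08 to −0.03, limma adjusted p = 0.205). Its relatives Mtf2 and Phf19 stood at 0.20 and 0.42. Mtf2, the Polycomb-like protein of embryonic stem cells, read 10.08 and 10.07 in depleted and 9.89 and 9.86 in control cells, a small gap that was wider than the spread within either pair. Phf19 lay under the receptor background, and its value was −0.07 without control replicate 2. Aebp2, a zinc finger cofactor, read 7.59 and 7.81 in depleted cells against 8.28 and 7.83 in controls, without overlap though by a narrow margin. Its log2 fold change was −0.35, or −0.58 without control replicate 2. Jarid2, which recruits PRC2 to CpG islands, stood at 0.08, or −0.11 without control replicate 2. The median of the accessory genes was 0.08, and −0.11 without that array.

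The paralogous ubiquitin ligase genes of PRC1 stood on opposite sides of 0. Rnf2 (Ring1B), the main ligase of embryonic stem cells, read 8.31 and 8.10 in depleted cells and 7.86 and 7.27 in controls (log2 fold change 0.64, interval 0.12 to 1.17, limma adjusted p = 0.151). Ring1 (Ring1A) read 6.99 and 7.08 on the depleted arrays against 7.51 and 7.35 on the control arrays (log2 fold change −0.39, limma adjusted p = 0.336). Neither pair of groups overlapped, where 36.8% of all genes above the receptor background were higher and 37.7% lower without overlap. The test was passed by 0 of 2 (limma, with 1 higher and 0 lower at an unadjusted p under 0.05 and 0 with the intensity trend). Without control replicate 2, Rnf2 stood at 0.35 and Ring1 at −0.47.

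Among the Pcgf genes, Pcgf5 rose. Pcgf5, a subunit of variant PRC1 that supports H2A ubiquitination away from promoters, read 7.05 and 6.87 on the depleted arrays and 6.17 and 5.69 on the control arrays, from deposited intensities of 125 and 114 in depleted cells and 74.4 and 56.6 in controls. All depleted values lay above all control values. The mean was 6.96 ± 0.13 in depleted cells against 5.93 ± 0.34 in controls (SD, n = 2 each), a log2 fold change of 1.03 (interval 0.50 to 1.55, limma adjusted p = 0.0177), or 1.15 above the median of all genes. Both group means lay under the receptor background, with only depleted replicate 1 above it, so the size of this change is that of a dim signal and no linear fold is given. The call ended with the intensity trend (limma adjusted p = 0.055), on the deposited log2 values (0.88, limma adjusted p = 0.0963), without control replicate 2 (0.79, limma adjusted p = 0.115) and without depleted replicate 1 or 2 (limma adjusted p = 0.830 and 0.387), while over all its alternatives the adjusted p ran from 0.000127 to 0.830.

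The other Pcgf genes did not pass the test (limma, 0 of 5; Pcgf1 and Pcgf3 had an unadjusted p under 0.05). Those of the variant complexes had positive values. Pcgf1, the partner of Kdm2b and Bcor, read 6.93 and 6.66 in depleted cells and 6.38 and 5.96 in controls (log2 fold change 0.62), all under the receptor background. Pcgf3, the closest relative of Pcgf5, read 7.90 and 7.65 in depleted cells and 7.52 and 6.82 in controls (log2 fold change 0.60). Pcgf6, which silences germline genes in stem cells, read 8.48 and 8.38 in depleted cells and 8.32 and 7.98 in controls (log2 fold change 0.28). Without control replicate 2 these values were 0.41, 0.25 and 0.11. The canonical genes had negative values. Pcgf2 (Mel18), which dominates in embryonic stem cells, read 9.61 and 9.78 in depleted and 10.14 and 10.09 in control cells (log2 fold change −0.42, interval −0.95 to 0.10, limma adjusted p = 0.303). Bmi1, a canonical subunit known from adult stem cells, stood at −0.14, at −0.01 after median centring of each array, and at −0.04 without control replicate 2. For all 6 Pcgf genes the groups did not overlap, with 4 higher and 2 lower. Over all genes 27.4% were higher and 33.3% lower in this way, and above the receptor background 36.8% and 37.7%. The same 4 Pcgf genes were above 0 under each scaling and without either control array. The median of the 6 was 0.44, or 0.18 without control replicate 2. The division into variant and canonical Pcgf genes was read from these values and carries no test.

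**Figure D2:**
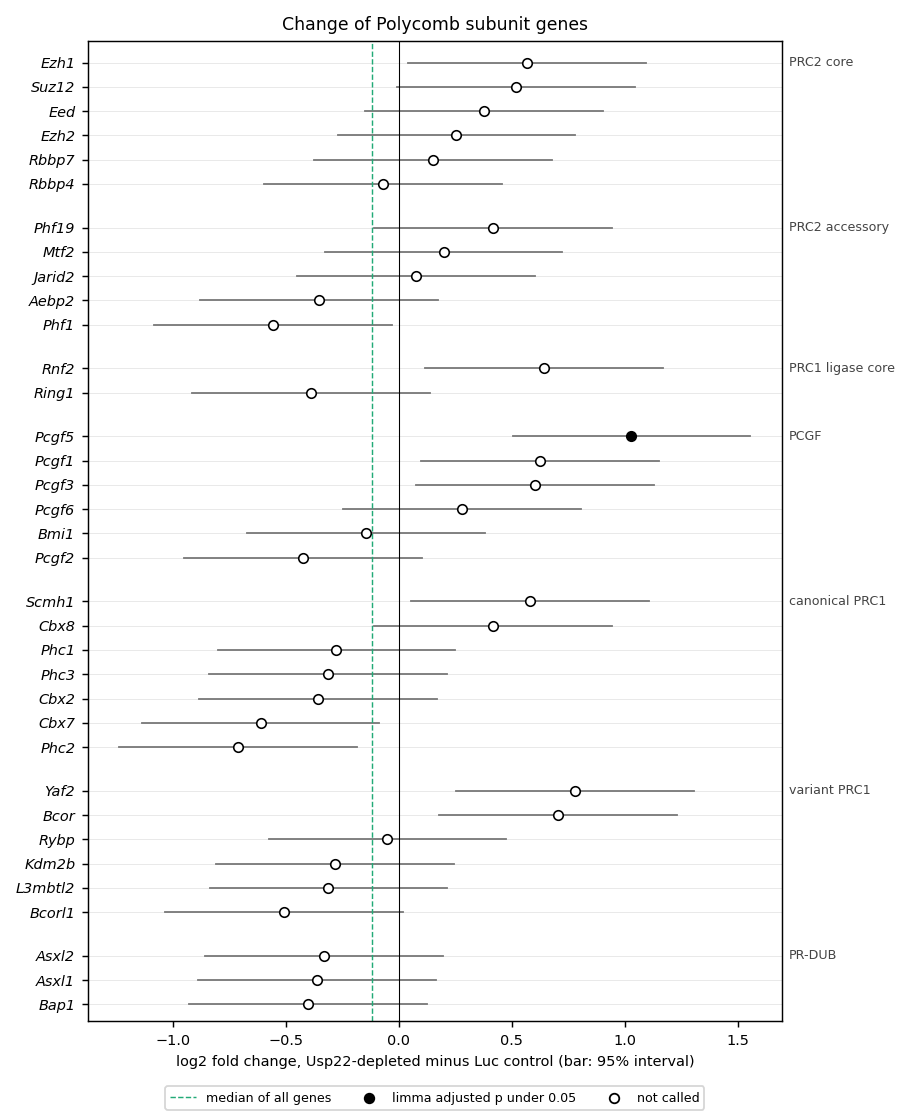
Log2 fold change (x axis, Usp22-depleted minus Luc control) of each Polycomb subunit gene (rows, by role) with its 95% interval as a bar; the filled circle is the gene with a limma adjusted p under 0.05, open circles were not called, and the dashed line is the median of all genes at −0.12. Pcgf5 is the filled circle at 1.03, and the intervals of most other genes cross 0.

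Genes of canonical PRC1 had mostly negative values, with a median of −0.31 over 7 measured genes (−0.19 without control replicate 2), against −0.12 over all genes. In 5 of them both depleted arrays lay below both controls, as in 33.3% of all genes and 37.7% of those above the receptor background. The test was passed by 0 (limma, with 1 higher and 2 lower at an unadjusted p under 0.05, and 0 higher and 1 lower with the intensity trend). Relative to the median of all genes, the median of the 7 was −0.20, and only −0.04 with each array centred on its median. Phc2, a polyhomeotic protein whose SAM domain polymerises and clusters PRC1, had the lowest value. It read 8.47 and 8.49 on the depleted arrays and 9.04 and 9.34 on the control arrays, from deposited intensities of 362 and 368 in depleted cells and 528 and 609 in controls. Without any overlap, the means were 8.48 ± 0.016 in depleted cells against 9.19 ± 0.21 in controls (SD, n = 2 each; log2 fold change −0.71, interval −1.24 to −0.18, limma adjusted p = 0.112). Phc2 fell in the fits with the intensity trend (limma adjusted p = 0.0241) and among genes above the receptor background (0.0403), but not after median centring of each array (−0.49, limma adjusted p = 0.24) or without control replicate 2 (−0.56, limma adjusted p = 0.244).

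Cbx7, the chromodomain protein of naive stem cells, read 8.50 and 8.49 in depleted cells against 9.02 and 9.19 in controls (log2 fold change −0.61, interval −1.14 to −0.09, limma adjusted p = 0.168). Its depleted arrays differed from each other by far less than from the controls. Cbx2, which compacts chromatin and is known from later stages, stood at −0.36, with 8.64 and 8.64 on the depleted and 8.73 and 9.25 on the control arrays, and at −0.10 without control replicate 2. Cbx8, known to be induced in differentiation, stood at 0.42 (0.14 without control replicate 2) and lay under the receptor background on all arrays. Phc1, the polyhomeotic protein that dominates in embryonic stem cells, stood at −0.28. For Phc3 the probe sets disagreed: the brighter gave −0.31, or −0.19 without control replicate 2, and the dimmer, under the receptor background, 0.84. Scmh1, a Sex comb on midleg homolog, read 6.89 and 6.77 in depleted cells and 6.78 and 5.72 in controls. Its log2 fold change of 0.58 rested on control replicate 2, without which it was 0.05.

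Variant PRC1 genes were spread on both sides of 0 (0 of 6 called by limma; 2 higher and 0 lower at an unadjusted p under 0.05, 0 with the intensity trend), with a median of −0.17 that turned to 0.0081 with each array centred on its median. Yaf2, which takes the place of Rybp in variant PRC1, read 7.65 and 7.47 in depleted cells and 6.92 and 6.64 in controls, without overlap. Its log2 fold change was 0.78 (interval 0.25 to 1.30, limma adjusted p = 0.081). Both control arrays lay under the receptor background, so Yaf2 counts among genes above it only through the depleted arrays. Its pass among those genes (limma adjusted p = 0.0269) is therefore no further support. Its paralog Rybp stood at −0.05, with 9.58 and 9.36 on the depleted and 9.52 and 9.52 on the control arrays, which overlapped; a dimmer probe set with the same symbol gave −0.08.
Bcor, the corepressor of the Pcgf1 complex, read 7.66 and 7.79 in depleted cells against 7.18 and 6.86 in controls (log2 fold change 0.70, interval 0.18 to 1.23, limma adjusted p = 0.114), and its relative Bcorl1 read 7.71 and 7.66 in depleted cells against 7.86 and 8.52 in controls (log2 fold change −0.51). The value of Bcorl1 was −0.18 without control replicate 2, and that of Bcor 0.54. Kdm2b, whose CXXC domain brings the same complex to unmethylated CpG islands, stood at −0.28. L3mbtl2, the subunit of the Pcgf6 complex with methyl-lysine binding repeats, stood at −0.31, or −0.49 without control replicate 2.

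PR-DUB genes read lower on both depleted arrays than on both controls, as 37.7% of all genes above the receptor background did. All 3 lie above it. The test was passed by 0 of 3 (limma, with 0 at an unadjusted p under 0.05 and 0 with the intensity trend). Bap1, the deubiquitinase that takes ubiquitin off H2A, read 8.78 and 8.92 in depleted cells and 9.23 and 9.27 in controls (log2 fold change −0.40, interval −0.93 to 0.12, limma adjusted p = 0.323). Its change was −0.38 without control replicate 2. Its cofactors Asxl1 and Asxl2, which activate Bap1, stood at −0.36 and −0.33, and at −0.18 and −0.13 without that array. The median of the 3 was −0.36, or −0.18 without control replicate 2, and −0.14 with each array centred on its median; relative to all genes these were −0.24 and −0.05.

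**Figure D3:**
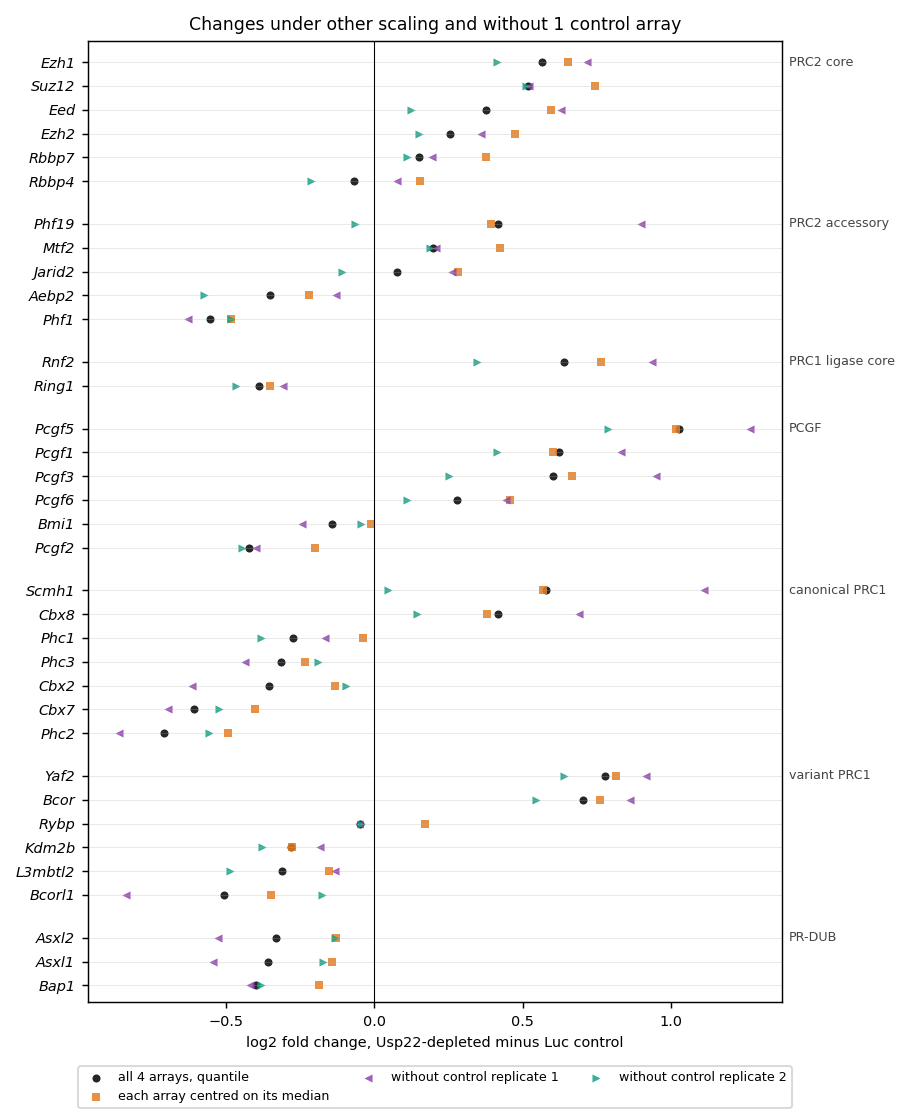
Log2 fold change (x axis, Usp22-depleted minus Luc control) of each Polycomb subunit gene with all 4 arrays (black circles), with each array centred on its median (orange squares), without control replicate 1 (purple triangles) and without control replicate 2 (green triangles). Pcgf5 stays the gene farthest to the right, between 0.79 and 1.27, and most genes lie closer to 0 without control replicate 2 than without control replicate 1.

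Other genes of the pathway were read from lists. Of 19 measured further PRC1 subunits and partners, 1 rose, Scml2, a Sex comb on midleg homolog, and 0 fell (limma). Over all genes 2.62% rose and 0.105% fell. At an unadjusted p under 0.05, 2 were higher and 0 lower (limma), where 15.4% and 6.63% of all genes were. The intensity trend gave 0 and 0. The median of the 19 was 0.30, or −0.01 without control replicate 2. Scml2 read 7.21 and 6.96 on the depleted and 6.54 and 5.73 on the control arrays (log2 fold change 0.95, limma adjusted p = 0.0289). It lay under the receptor background by its mean over the 4 arrays, and without control replicate 2 it stood at 0.55 and was not called (limma adjusted p = 0.255). Its call was also lost without either depleted array, on the deposited log2 values and with the trend. Next by p were Usp7, a deubiquitinase found in variant PRC1, at 0.55, Sfmbt1 at 0.52 and Fbrs at −0.50, which were 0.35, 0.17 and −0.35 without control replicate 2. The 5 genes associated with PRC2 had a median of −0.20 (−0.12 without that array), with Zfp518a at 0.62, Zfp518b at 0.41, Ezhip, an inhibitor of PRC2, at −0.37 and Lcor at −0.24. Without it these were 0.44, 0.24, −0.58 and −0.12. Of 7 further genes counted with PR-DUB, Kdm1b stood at 0.69, Foxk2 at 0.49, Mbd6 at −0.43 and Asxl3 at −0.43. Without control replicate 2, Kdm1b stood at 0.30, and the median of these 7 was −0.15, against 0.01 with all arrays. The mean signals of Sfmbt1, Ezhip and Kdm1b lay under the receptor background. In these lists of 5 and 7, 0 passed the test (limma; 1 in each was higher and 0 lower at an unadjusted p under 0.05, 0 with the intensity trend).

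Antagonists of Polycomb marks gave 0 of 10 called (limma, also 0 with the intensity trend) and a median of 0.06 (0.10 without control replicate 2). At an unadjusted p under 0.05, 3 were higher and 1 lower (limma), where 15.4% and 6.63% of all genes were. Usp3, a deubiquitinase of H2A, read 7.89 and 7.75 in depleted cells and 7.16 and 6.80 in controls, without overlap (log2 fold change 0.84, limma adjusted p = 0.055). It passed with each array centred on its median (limma adjusted p = 0.0319) and among genes above the receptor background (limma adjusted p = 0.0151). The control mean of Usp3, 6.98, lay just under that background of 6.99. The filter thus kept Usp3 through its depleted arrays, and the pass among those genes is no further support. Usp16, another H2A deubiquitinase, stood at 0.71, Usp12 at −0.64 and Kdm6a, an H3 demethylase that removes the PRC2 mark, at 0.62. The mean signal of Kdm6a lay under the receptor background. Without control replicate 2, Usp16 stood at 0.38 and Usp12 at −0.30.

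Genes outside the Hox clusters that are known as Polycomb targets in embryonic stem cells had mostly negative values. Of 37 measured, 0 rose and 0 fell (limma), where 2.62% and 0.105% of all genes did. At an unadjusted p under 0.05, 0 were higher and 6 lower (limma), where 15.4% and 6.63% of all genes were. With the intensity trend 3 fell, where 1.43% of all genes did. The median was −0.36, with 2 higher and 24 lower without overlap, where 27.4% and 33.3% of all genes were. It was −0.25 without control replicate 2, −0.49 without control replicate 1 and −0.34 with each array centred on its median. Of the 37, 15 lay above the receptor background. Tbx3, Nkx2-2 and Evx1 were among them (means of 10.30, 8.61 and 9.01), but Gata4, Cdx2 and En1 lay only just above it (7.14, 7.13 and 7.12). These 15 had a median of −0.43, against −0.03 for all genes above that background. The other 22 had a median of −0.33, against −0.15 for all genes at or below it. Markers of early lineages, 8 of which are also in this list, had lower summed normalized signals in 3 lists. They ran from 679 to 698 on depleted and from 774 to 994 on control arrays for primitive endoderm, from 1572 to 1584 on depleted and from 1939 to 1950 on control arrays for trophectoderm, and from 1045 to 1050 on depleted and from 1256 to 1600 on control arrays for mesoderm. The order was the same for deposited intensities and for intensities divided by each array's median. Such sums follow their brightest genes, and in mesoderm these were Evx1 and Mesp1 (means of 9.01 and 8.66). No primitive endoderm marker lay far above the receptor background (Gata4 and Sox17 were highest, at 7.14). In these 3 lists Gata6, Eomes, Tfap2c and Kdr had positive log2 fold changes (0.02, 0.45, 0.07 and 0.23). Without control replicate 2 they were −0.07, 0.33, −0.09 and −0.23, while Tbx6 turned from −0.006 to 0.05. Of all these genes, only Tfap2c lay above the receptor background. For neuroectoderm the sums ran from 1428 to 1473 on depleted and from 1485 to 1526 on control arrays, but the order turned when divided by the array median (12.9 to 13.0 on depleted and 11.7 to 12.5 on control arrays). Within that list Otx2, named after its value was seen, was higher on both depleted arrays (8.83 and 8.82) than on the controls (8.34 and 7.92; log2 fold change 0.69, limma adjusted p = 0.119). Embryonic stem cell markers summed to between 15249 and 15658 on depleted and between 16435 and 16539 on control arrays, and this order turned as well when divided by the array median (139 to 144 on depleted and 122 to 136 on control arrays). The fibroblast sums overlapped, from 1025 to 1066 on depleted and from 1042 to 1298 on control arrays. No marker read 0, and the part of other cells in these values was not tested. Tbx3, a factor that embryonic stem cells in 2i also express, read 9.96 and 9.97 in depleted cells and 10.53 and 10.74 in controls (log2 fold change −0.67, limma adjusted p = 0.131). Wt1, a factor of kidney and gonad development, stood at −0.75, with a mean signal under the receptor background. The neural factor Nkx2-2 stood at −0.68, or −0.28 without control replicate 2, and Pax2, a factor of kidney and midbrain, at −0.63. The genes that fell with the trend were Tbx3 (limma adjusted p = 1.04e-05), Nkx2-2 (0.0488) and, named after its value was seen, Evx1 (0.0367), at −0.63. Cdkn2a, the cell cycle inhibitor locus that is a classical Polycomb target, stood at 0.002, and Eomes and Otx1 were the 2 genes higher without overlap, at 0.45 and 0.27, or 0.33 and 0.10 without control replicate 2; without it Cdkn2a was at −0.27. All 3 were named after their values were seen.

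**Figure D4:**
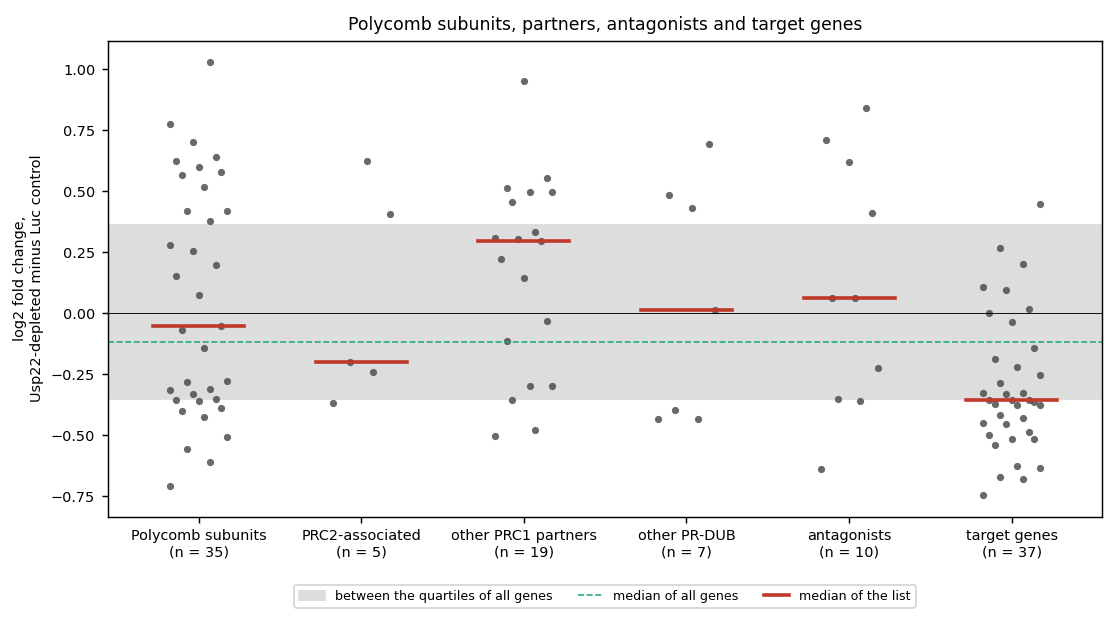
Log2 fold change (y axis, Usp22-depleted minus Luc control) of the genes in 6 lists, 1 point a gene, with the median of each list as a red bar, the range between the quartiles of all genes in grey and their median, −0.12, as a dashed line. The target genes lie mostly below the dashed line around a median of −0.36, and the Polycomb subunits lie on both sides of 0.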

How the data were processed

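The table of the whole series holds 28856 probe sets on 4 arrays. Per the labels' protocols, biotin-labelled cDNA made from Trizol-extracted RNA was hybridised to Affymetrix arrays. The authors deposited 1 linear intensity per probe set; how it was summarised and normalized is not given in the sources used here. Quantile normalization followed on log2 intensities. The platform annotation from GEO, possibly dated, gave 1 symbol to 21789 probe sets, several to 1621, and 5446 are unnamed here; 21698 matched RefSeq by gene ID and 0 symbols changed. All 19938 genes were fitted in limma 3.58.1 (R 4.3.3; lmFit then eBayes, 2 groups, two-sided, Benjamini-Hochberg over all genes, adjusted p under 0.05), after a test on simulated data. The prior degrees of freedom were infinite and the residual ones 2. No filter on low values was used.

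The median of all genes was −0.12 here, −0.24 for log2 intensities left as deposited, and −0.09 with arrays centred on their medians. All 35 members are named; values on each array are given at least for members called with or without the trend and for the member with the largest change in each role, and up to 4 genes with the lowest p are named in each other list. Members, lists and tests were chosen with earlier results of these data known. Promoter coordinates are RefSeq's (GRCm38.p6); the deposited files name no genome build. No pair of arrays was identical (0 pairs). Alternatives were other scaling, averaged probe sets, filters on dim genes, limma's trend and robust settings, the replicate number as a block and leaving out each array.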

Additional observations from a re-analysis of the deposited data

How the results depend on the processing

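Leaving out 1 array at a time, with a lone array assumed to vary like the other group, moved the count of genes called from 0 to 4884 higher and from 0 to 4236 lower, that of Polycomb members from 0 to 11 higher and from 0 to 6 lower, and that of the other lists from 0 to 19 in either direction. The highest counts came without control replicate 1. The members' median ran from −0.07 to 0.08, their count without overlap from 14 to 17 higher and from 16 to 19 lower, and Usp22 from −1.15 to −1.09. Non-overlap is easier to reach for any gene with an array fewer. No share over all genes stands beside these counts, so they say nothing particular about the members. With each array centred on its median, 927 genes were higher, 3 genes of the other lists were called higher, and the members' median was 0.17. On the deposited log2 values, 75 genes were higher and 10 lower, with 0 members and 0 genes of the other lists called (limma). Among the 9736 genes above the receptor background, 149 were lower. Of the 29 members there, 2 were higher (Yaf2 and Bcor) and 1 lower (Phc2), and the other lists gave 2 higher and 2 lower. The count of all genes higher under this filter is not given here, so the 2 higher members have no share beside them. The control means of Yaf2 and Usp3 lay under that background, so this filter kept them through their depleted arrays. With the dimmest 0.25 of genes left out, 36 genes were lower, and 2 members (Pcgf5 and Yaf2) and 2 genes of the other lists were higher. This filter left out Cbx8 with a mean of 6.17, while the control mean of Pcgf5 was 5.93. It thus kept Pcgf5 through its depleted arrays, and the pass of Pcgf5 there is no further support. The count of all genes higher under it is not given here. The intensity trend gave 326 genes higher and 286 lower, 0 members higher and 1 lower, and 0 and 3 in the other lists. The trend with robust settings gave 339 genes lower, 3 members lower (Pcgf2, Cbx7 and Phc2) and 3 genes of the other lists lower, with Pcgf5 still higher. With the replicate number as a block, 856 genes were higher and 42 lower, with 2 of the other lists higher, and Pcgf5 alone among members was called; same-numbered arrays deviated together at r = 0.10 across genes, and with only 2 numbers this does not show that they pair. The following members turned sign: Rbbp4 (0.15 centred, 0.012 as deposited, −0.22 to 0.076 with 1 array left out), Rybp (0.17, 0.028 and −0.16 to 0.061), Phc3 with its probe sets averaged (0.26), Jarid2 (−0.11 to 0.26 with 1 array left out) and Phf19 (−0.067 to 0.90). The other members kept their sign in every alternative in which they were measured. The cause of these shifts was not tested. Signal limits Pcgf1, Pcgf5, Phf19, Cbx8, Scmh1 and Kdm2b, whose means lay under the receptor background.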
